A study of Mus musculus with 8 samples.

Results

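Transfer RNAs (tRNAs) that carry serine, threonine, cysteine, asparagine, glutamine, proline, phenylalanine, tyrosine, tryptophan or selenocysteine were examined in small RNA from mouse testis. These are the tRNAs for the uncharged polar and the aromatic amino acids, with proline and selenocysteine. Members were taken by name, from the tRNA genes whose listed name holds one of these 10 amino acids. They were 135 of the 20558 small RNAs listed and 135 of the 362 nuclear tRNA genes listed with an amino acid. They fall under 19 anticodons, the base triplets that read the codon. Of the 135 genes, 39 are listed under the type tRNA and 96 under the type mmu-ucsc-tRNA.

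The study asked whether testis RNA of males on an altered diet differs from that of control males. Adult C57Bl/6 males on a standard diet (SD, mice M1N, M2N, TN1 and TN2) were compared with males on a Western-like diet rich in sugar and fat (WD, mice M1W, M2W, M3W and M5W). Per the labels the diet began at the age of 4 weeks and the males were mated at 4 months. The growth text of the labels describes the rich diet for all 8 mice, so the diet of each mouse was taken from its title as control or experimental. The labels name no other treatment and no allele in either group, and each mouse gave 1 small RNA library read on a SOLiD sequencer. What the letters M and TN in the mouse names stand for is not given in the sources used here. The names of all WD mice also begin with M, so TN occurs only among SD mice. If the letters mark a group of mice, group and diet cannot be told apart in a comparison with TN1 and TN2.

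Nuclear tRNAs are made by RNA polymerase III, trimmed at both ends, heavily modified and loaded with their amino acid by a dedicated synthetase. Mouse carries several genes for most anticodons, and copies of an anticodon often give the same mature RNA. Cells also cut mature tRNAs into shorter fragments, and such fragments are abundant in sperm, which acquire part of them in the epididymis. Reads of a small RNA library on a tRNA gene may come from such fragments or from pieces of the whole tRNA, and the counts do not separate these. A read count is therefore given here as reads, and not as the level of charged or whole tRNA.

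The total count was between 2064562 (TN2) and 3253798 (M2N) in SD mice and between 2159625 (M3W) and 3092399 (M5W) in WD mice. TN2 was thus the shallowest library. Values are given below as CPM, the read count relative to the library's total after scaling with TMM factors, edgeR's correction for a few abundant RNAs taking up reads. A count of 0 allows up to 3 counts, which was between 0.933 and 1.39 CPM, and such limits cover counting error only.

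The 135 genes took a small part of the reads. In SD mice they held 0.205% of all counts in M1N (95% Wilson interval 0.200 to 0.210), 0.189% in M2N (0.185 to 0.194), 0.129% in TN1 (0.125 to 0.133) and 0.119% in TN2 (0.114 to 0.124). In WD mice they held 0.166% in M1W (0.162 to 0.171), 0.174% in M2W (0.168 to 0.179), 0.148% in M3W (0.143 to 0.153) and 0.111% in M5W (0.107 to 0.115). M1N and M2N were the highest of all 8 mice and M5W the lowest, and the diets overlapped. The mean was 0.161% ± 0.0429 in SD and 0.150% ± 0.0280 in WD mice (SD, n = 4 each), a gap smaller than the spread within either diet. The other 227 nuclear tRNA genes held 1.72% ± 0.263 in SD and 1.60% ± 0.301 in WD mice (SD, n = 4 each). Of all nuclear tRNA counts, the 135 genes had 8.49% ± 1.40 (SD, n = 4) and 8.58% ± 0.830 (SD, n = 4). In whole testis, fewer cells of a type and less RNA per cell cannot be told apart.

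Between the diets no gene passed the test. The filter on low counts left 53 of the 135 genes, and the 82 others held 6.99% of the members' counts. By edgeR's quasi-likelihood test 0 of the 53 reached an adjusted p under 0.05, against 0% of all 16955 small RNAs tested, and DESeq2 and limma-voom also gave 0. An unadjusted p of 0.05 or less was reached by 3 of the 53, against 14.6% of all small RNAs tested, and by 2 of the 53 with DESeq2 (background 12.9%) and with limma-voom (background 14.8%). Of the 3, 1 was lower in WD mice, against 7.83% of all, and 2 were higher, against 6.76%. None of the 53 had diets that did not overlap, against 5.69% of all. The median log2 fold change of the 53 genes was 0.02, and that of all small RNAs tested was -0.01. Of the sums over the copies of an anticodon, 0 of 18 were at an adjusted p under 0.05 (background 0%) and 3 of 18, SeCTCA, SerAGA and TrpCCA, at an unadjusted p of 0.05 or less (background 14.8%). The numbers at that unadjusted limit were 1 of 18 with DESeq2 (background 13.1%) and 2 of 18 with limma-voom (background 15%). Of the 10 amino acid sums 0 passed at an adjusted p under 0.05 (background 0%), and 2, selenocysteine and tryptophan, had an unadjusted p of 0.05 or less (background 14.8%). In exact permutation tests over the mice the two-sided p of the 18 anticodon sums ran from 0.0571 to 0.914.

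**Figure D1:**
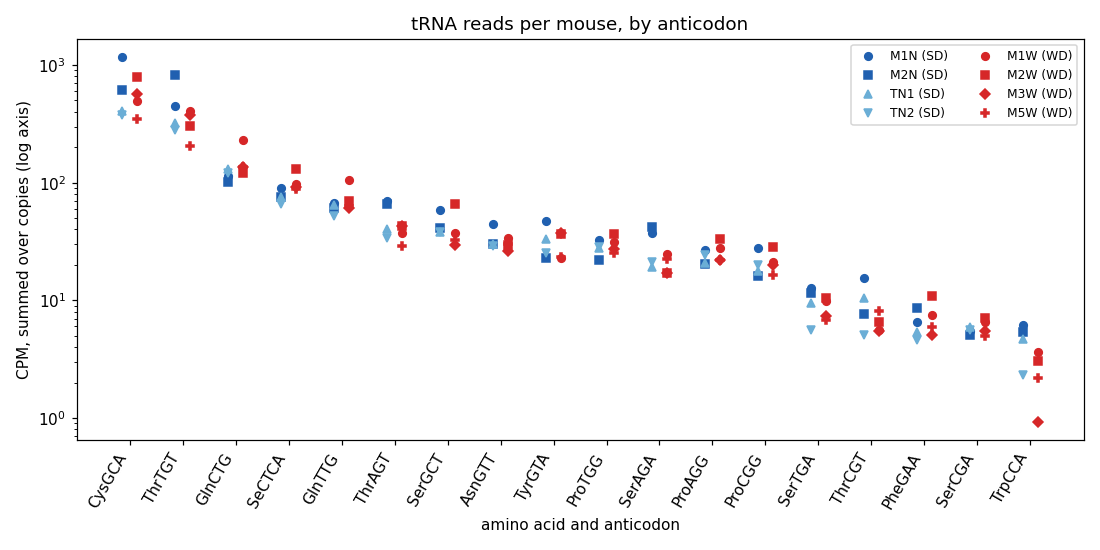
Reads on each anticodon, summed over its copies, in CPM on a log axis, with 1 point per mouse (SD mice blue, WD mice red, SerGGA left out for its low count). CysGCA and ThrTGT lead, and in both the highest point is an SD mouse (1168 CPM in M1N and 818 CPM in M2N), while the diets overlap for all 18 anticodons.

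The anticodons differed widely in reads. Averaged over the 8 mice, the cysteine anticodon GCA had 594.7 CPM and ranked 9 among all nuclear tRNA anticodons listed, and the threonine anticodon TGT had 394.2 CPM. The first of all was the glutamic acid anticodon TTC, with 4191 CPM. Lowest among the 10 amino acids were phenylalanine, with 6.83 CPM over 6 copies, and tryptophan, with 3.55 CPM over 6 copies. Per copy, the order was another. Selenocysteine tRNA, with 1 gene, had 89.4 CPM per copy and ThrTGT, with 4 genes, 98.6 CPM per copy. CysGCA, with 34 genes, had 17.5 CPM per copy. The lengths of these tRNAs were not used here, so such figures compare reads and not molecules, and capture of a tRNA in the library may differ with its modifications.

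Cysteine tRNA, which supplies the residue that forms disulfide bonds, has a single anticodon here. Its reads summed to 1168 CPM in M1N, 611.9 CPM in M2N, 408.2 CPM in TN1 and 373.3 CPM in TN2. In WD mice they were 494.4 CPM in M1W, 792 CPM in M2W, 564 CPM in M3W and 345.3 CPM in M5W. M1N and M2W were the highest mice, 1 in each diet, and the WD mice lay within the range of the SD mice except for M5W, the lowest of all. The log2 fold change of WD over SD was -0.22 (standard error, SE, 0.32; adjusted p = 0.743, edgeR). Against M1N and M2N alone it was -0.70 (SE 0.26, adjusted p = 0.0537), and against TN1 and TN2 alone it was 0.49 (SE 0.22, adjusted p = 1.00). The sign thus turned with the pair of SD mice taken as control, and without M1N alone the value was 0.24.

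Most of these reads lay on 1 copy. The gene chr11.tRNA1444-CysGCA took 52.9% of the cysteine counts, with a mean count of 864.1 ± 282.4 (SD, n = 8). Its values were 512.4, 294.6, 235.9 and 243.2 CPM in M1N, M2N, TN1 and TN2, and 293.2, 319.2, 358.5 and 255.7 CPM in M1W, M2W, M3W and M5W. M1N stood above all other mice, and the remaining 7 overlapped. The log2 fold change of this gene was -0.07 (SE 0.23, adjusted p = 0.896 in edgeR's test), and 0.25 without M1N. A further set of copies varied more between mice. The gene chr6.tRNA157-CysGCA had 96.3, 45.6, 26.5 and 21.3 CPM in the SD mice in the same order, and 31.2, 70.2, 32.3 and 14.9 CPM in the WD mice. M1N was again the highest, M2W followed, and M5W was the lowest. chr11.tRNA1432-CysGCA, chr11.tRNA791-CysGCA, chr9.tRNA593-CysGCA and chr17.tRNA458-CysGCA had log2 fold changes of -0.40, -0.40, -0.39 and -0.42 (adjusted p between 0.665 and 0.712, edgeR) beside -0.38 for chr6.tRNA157-CysGCA. Without M1N the signs turned, to 0.20, 0.23, 0.26 and 0.23, and to 0.21 for chr6.tRNA157-CysGCA. Counts of chr11.tRNA791-CysGCA, chr9.tRNA593-CysGCA and chr17.tRNA458-CysGCA were nearly the same in each mouse, and these genes may not be separate measurements. Of the 34 cysteine genes, 26 are listed on chromosome 6, and 24 of these had a mean count under 5. The 5 genes on chromosome 11 held 77.0% of the cysteine counts.

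**Figure D2:**
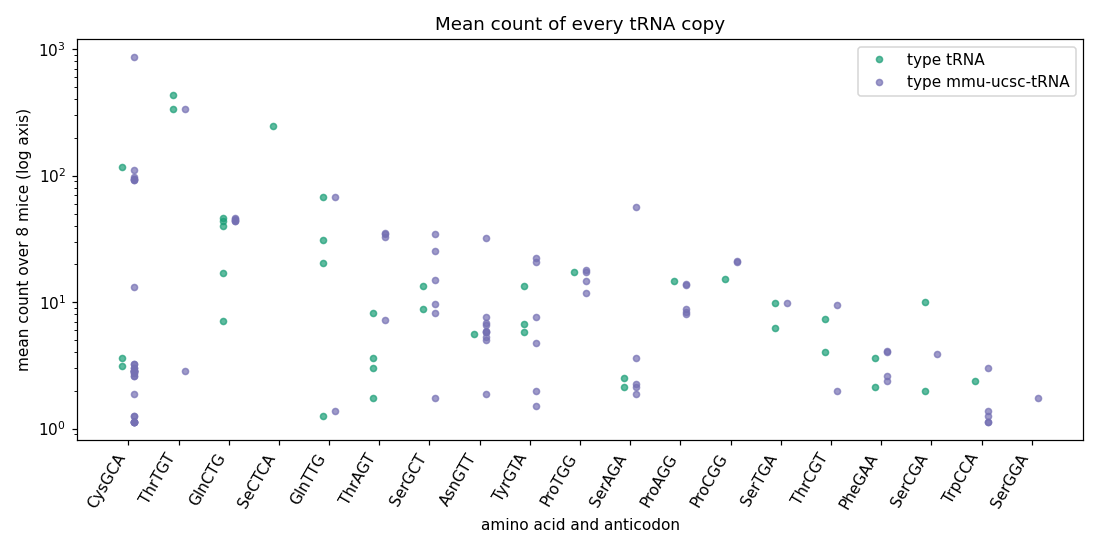
Mean count over the 8 mice of each of the 135 tRNA genes on a log axis, by anticodon, with 1 point per gene (green, type tRNA; purple, type mmu-ucsc-tRNA). Reads lie unevenly over the copies: for CysGCA 1 gene has 864.1 counts and the lowest has 1.12.

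Threonine tRNA has 3 anticodons here, of which TGT had most reads. The ThrTGT sum was 452.7 CPM in M1N, 818.2 CPM in M2N, 320.7 CPM in TN1 and 281.6 CPM in TN2. In WD mice it was 403.0 CPM in M1W, 300.8 CPM in M2W, 372.8 CPM in M3W and 204.1 CPM in M5W. M2N stood far above the others and M1N second, while TN1 and TN2 lay among the WD mice. The log2 fold change was -0.55 (SE 0.29, adjusted p = 0.377, edgeR), and without M2N it was -0.13. Against M1N and M2N it was -0.99 (SE 0.24, adjusted p = 0.00597), and against TN1 and TN2 it was 0.09 (SE 0.20, adjusted p = 1.00). For ThrAGT the SD mice had 69.6, 66.0, 40.6 and 33.8 CPM in the order M1N, M2N, TN1 and TN2, and the WD mice M1W, M2W, M3W and M5W had 37.5, 43.0, 42.9 and 28.9 CPM. M1N and M2N were above every other mouse, and the other 6 mice overlapped. Its log2 fold change was -0.48 (SE 0.23, adjusted p = 0.347). The values against the pairs were -0.84 (SE 0.20, adjusted p = 0.00595) and 0.01 (SE 0.20, adjusted p = 1.00). ThrCGT was low, with 9.64 ± 4.42 CPM in SD and 6.45 ± 1.20 CPM in WD mice (SD, n = 4 each), and none of its 4 genes passed the filter. Its log2 fold change was -0.59 (SE 0.32, adjusted p = 0.384), and without M1N it was -0.28. Summed over all 16 genes, threonine had a log2 fold change of -0.54 (SE 0.28, adjusted p = 0.364), which was -0.97 against M1N and M2N (SE 0.23, adjusted p = 0.00468) and 0.07 against TN1 and TN2. Without M2N it was -0.17.

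Among single threonine genes, chr14.tRNA190-ThrTGT had 183.0, 337.3, 138.0 and 107.9 CPM in M1N, M2N, TN1 and TN2, and 134.1, 106.6, 149.3 and 70.3 CPM in M1W, M2W, M3W and M5W. M2N was the highest and M5W the lowest, and the diets overlapped. Its log2 fold change of -0.74 (SE 0.31, adjusted p = 0.323, edgeR) was the 1 lower value among the 3 genes whose unadjusted p was 0.05 or less. Without M2N it was -0.31, and 0 of 57 genes were then at that limit (background 7.95%). Against M1N and M2N it was -1.18 (SE 0.25, adjusted p = 0.00314), and against TN1 and TN2 it was -0.11 (SE 0.22, adjusted p = 1.00). chr11.tRNA206-ThrTGT and chr14.tRNA704-ThrTGT, on different chromosomes, had nearly the same counts in each mouse and may not be separate measurements. Their log2 fold changes were -0.44 and -0.44 (adjusted p = 0.461 and 0.460), and -0.026 and -0.031 without M2N.

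Serine tRNA has 5 anticodons here, and its residue is the main site of phosphorylation in proteins. SerAGA had 37.4 CPM in M1N, 41.8 CPM in M2N, 19.2 CPM in TN1 and 21.3 CPM in TN2. In WD mice it had 24.7 CPM in M1W, 17.1 CPM in M2W, 17.0 CPM in M3W and 22.4 CPM in M5W. M1N and M2N were above every other mouse, and TN1 and TN2 lay among the WD mice. The log2 fold change was -0.55 (SE 0.26, adjusted p = 0.336, edgeR), and against M1N and M2N it was -0.95 (SE 0.22, adjusted p = 0.00543) and against TN1 and TN2 0.03 (SE 0.23, adjusted p = 1.00). Without M2N it was -0.34, and the exact permutation test gave a two-sided p = 0.229. The gene chr13.tRNA980-SerAGA took 79.6% of the SerAGA counts, with a mean count of 56.8 ± 26.4 (SD, n = 8), and had a log2 fold change of -0.52 (SE 0.27, adjusted p = 0.365), which was -0.29 without M2N. SerGCT averaged 44.0 ± 10.1 CPM in SD and 41.3 ± 16.6 CPM in WD mice (SD, n = 4 each), with M2W the highest of all mice at 65.8 CPM, and its log2 fold change was -0.10 (SE 0.24, adjusted p = 0.853), and -0.41 without M2W. SerTGA and SerCGA had log2 fold changes of -0.20 and 0.12 (adjusted p = 0.730 and 0.847). SerTGA was at -0.069 without M1N and at 0.15 against TN1 and TN2. With each mouse left out SerCGA ran from 0.045 to 0.21. SerGGA, with 1 gene and at most 3 counts in any mouse, was at or under the limit set by a count of 0 and was not tested. Over the 22 serine genes the log2 fold change was -0.22 (SE 0.20, adjusted p = 0.595), and -0.078 without M1N.

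Glutamine tRNA had its highest values in 1 WD mouse, M1W. GlnCTG had 113.4 CPM in M1N, 100.4 CPM in M2N, 130.4 CPM in TN1 and 121.8 CPM in TN2. In WD mice it had 231.4 CPM in M1W, 120.6 CPM in M2W, 135.5 CPM in M3W and 135.0 CPM in M5W. M1W was the highest of all, M2W lay within the range of the SD mice, and M3W and M5W were just above it. The log2 fold change was 0.42 (SE 0.20, adjusted p = 0.344, edgeR), and without M1W it was 0.16. GlnTTG had 66.8, 60.6, 64.6 and 52.3 CPM in the SD mice and 106.2, 70.2, 60.4 and 63.5 CPM in the WD mice, in the order given above. M1W was again the highest, and the diets overlapped. Its log2 fold change was 0.30 (SE 0.19, adjusted p = 0.449), and without M1W it was 0.08. Both anticodons had a positive value against each pair of SD mice. The gene chr13.tRNA87-GlnCTG, chosen after its values were seen since its unadjusted p was under 0.05, had a log2 fold change of 0.59 (SE 0.27, adjusted p = 0.338), with 27.0 CPM in M1W and between 11.4 and 16.2 CPM in the other WD mice, and between 10.2 and 13.5 CPM in SD mice. Without M1W that gene's log2 fold change was 0.27. The most counted glutamine gene, chr13.tRNA114-GlnTTG, had 0.36 (SE 0.21, adjusted p = 0.405), and 0.19 without M1W. Over the 16 glutamine genes the log2 fold change was 0.38 (SE 0.19, adjusted p = 0.360), and the exact permutation test gave a two-sided p = 0.0571 for this sum, 0.0857 for GlnCTG and 0.286 for GlnTTG. Without M1W the log2 fold change was 0.13.

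Selenocysteine tRNA, which reads UGA stop codons in the mRNAs of selenoproteins such as the sperm protein GPX4, is listed as 1 gene, chr7.tRNA86-SeC(e)TCA. It had 89.8 CPM in M1N, 74.9 CPM in M2N, 75.9 CPM in TN1 and 66.2 CPM in TN2. In WD mice it had 97.6 CPM in M1W, 129.8 CPM in M2W, 92.2 CPM in M3W and 88.7 CPM in M5W. Each WD mouse but M5W was above each SD mouse, and M5W lay just below M1N. The mean in WD mice was 102.1 ± 18.9 CPM, and in SD mice 76.7 ± 9.74 CPM (SD, n = 4 each). The log2 fold change of 0.41 (SE 0.17, adjusted p = 0.320, edgeR) did not pass the test, and the exact permutation test gave a two-sided p = 0.0571, where the smallest p that 4 against 4 mice can give is 0.0286. It was 0.31 (SE 0.20, adjusted p = 0.277) against M1N and M2N and 0.51 (SE 0.18, adjusted p = 1.00) against TN1 and TN2. Without M2W it was 0.28.

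Proline, whose ring bends the protein chain, has tRNAs of 3 anticodons here, with 14 genes. The gene chr1.tRNA672-ProAGG had 6.17 CPM in M1N, 4.78 CPM in M2N, 4.41 CPM in TN1 and 4.63 CPM in TN2. In WD mice it had 5.59 CPM in M1W, 7.45 CPM in M2W, 4.61 CPM in M3W and 4.98 CPM in M5W. M2W was the highest, and the diets overlapped. Its mean count was 14.6 ± 3.11 (SD, n = 8), and its log2 fold change was 0.17 (SE 0.29, adjusted p = 0.791, edgeR), and 0.026 without M2W. The gene chr1.tRNA1022-ProCGG had 7.88, 3.83, 5.04 and 5.56 CPM in M1N, M2N, TN1 and TN2, and 5.59, 7.02, 5.07 and 4.67 CPM in M1W, M2W, M3W and M5W. Its highest and its lowest value were both in SD mice, M1N and M2N. Its mean count was 15.2 ± 3.85 (SD, n = 8), and its log2 fold change was -0.0026 (SE 0.30, adjusted p = 0.996). That value was 0.22 without M1N and -0.15 without M2N. In RefSeq's table for GRCm38.p6, used here for gene order only, 1 gene of each of these anticodons is on chromosome 1, and no other listed tRNA gene lies between them.

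The proline anticodons were similar to each other. ProAGG summed to 23.0 ± 2.98 CPM in SD and 26.4 ± 5.40 CPM in WD mice (SD, n = 4 each). ProCGG had 20.4 ± 5.39 CPM (SD, n = 4) and 21.5 ± 5.07 CPM (SD, n = 4). ProTGG had 27.7 ± 4.34 CPM (SD, n = 4) and 30.2 ± 5.16 CPM (SD, n = 4). For all 3 the highest mouse was M2W and the diets overlapped. The gap between the means was smaller than the spread between the WD mice for each, and for ProAGG larger than that between the SD mice. The log2 fold changes were 0.20, 0.07 and 0.12 (adjusted p = 0.635, 0.904 and 0.773, edgeR), and without M2W they were 0.073, -0.091 and 0.019. No proline gene dominated, since the means ran from 8 to 21 counts, the highest being chr11.tRNA396-ProCGG with a log2 fold change of 0.07 (adjusted p = 0.916). With each mouse left out that gene ran from -0.084 to 0.26. Over all 14 genes the value was 0.13 (SE 0.18, adjusted p = 0.733), and 0.0049 without M2W.

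Asparagine, the residue that carries N-linked sugars, had 44.6 CPM in M1N and between 28.7 and 30.0 CPM in the other SD mice, and between 26.3 and 34.2 CPM in WD mice. M1N alone was high, and the log2 fold change was -0.15 (SE 0.19, adjusted p = 0.709, edgeR), and 0.022 without M1N. Of its 11 genes 1 passed the filter, chr2.tRNA1947-AsnGTT, with -0.25 (SE 0.27, adjusted p = 0.663), and 0.064 without M1N. Tyrosine, an aromatic residue and the target of tyrosine kinases, had 47.3, 23.0, 33.1 and 25.0 CPM in M1N, M2N, TN1 and TN2, and 23.0, 36.8, 37.3 and 23.3 CPM in M1W, M2W, M3W and M5W. M1N was the highest, M3W and M2W followed, and the diets overlapped. Its log2 fold change was -0.11 (SE 0.25, adjusted p = 0.847), and its most counted gene, chr13.tRNA106-TyrGTA, had -0.33 (adjusted p = 0.592). Without M1N these were 0.13 and -0.089.

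The other aromatic residues had few reads. Phenylalanine tRNA had 6.51, 8.61, 5.36 and 4.63 CPM in M1N, M2N, TN1 and TN2, and 7.56, 11.0, 5.07 and 5.91 CPM in M1W, M2W, M3W and M5W. The diets overlapped, with a log2 fold change of 0.21 (SE 0.31, adjusted p = 0.757, edgeR), which was -0.022 without M2W. Its highest gene was chr13.tRNA60-PheGAA, with a mean of 4.12 counts. Tryptophan tRNA, with the single codon UGG, had 6.17, 5.42, 4.73 and 2.32 CPM in the SD mice and 3.62, 3.07, 0.922 and 2.18 CPM in the WD mice, in the same order. M1N, M2N and TN1 were above all WD mice, and TN2 lay among them. The log2 fold change was -0.92 (SE 0.41, adjusted p = 0.326), and the exact permutation test gave a two-sided p = 0.114. Its highest gene, chr11.tRNA1880-TrpCCA, had a mean of 3 counts, and M3W had 0.922 CPM over all 6 genes, below the limit of 1.38 CPM that a count of 0 allows in that library. No phenylalanine or tryptophan gene passed the filter on its own.

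**Figure D3:**
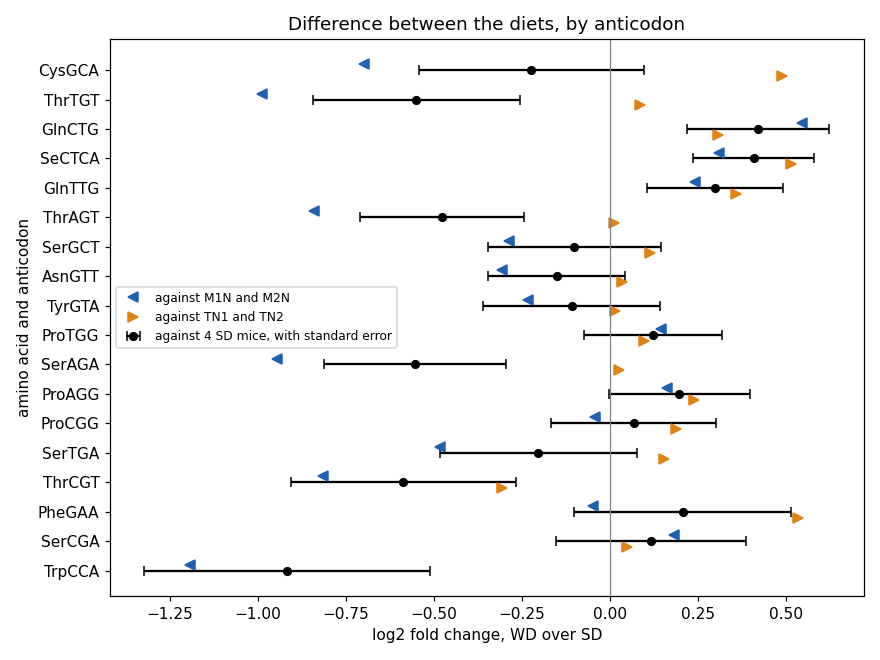
Log2 fold change of WD over SD mice for each anticodon sum, against all 4 SD mice (black, bars are the standard error), against M1N and M2N (blue) and against TN1 and TN2 (orange; TrpCCA did not pass the filter there). For 10 anticodons the blue point is below 0 and the orange point above it, while the 6 anticodons SeCTCA, GlnCTG, GlnTTG, SerCGA, ProAGG and ProTGG are above 0 in each comparison.

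WD mice were also compared with each pair of SD mice alone. With only M1N and M2N as controls, 7 of 63 genes reached an adjusted p under 0.05 (edgeR), against 20.8% of all small RNAs tested. Lower in WD mice were 7 of 63, near the 10.8% of all, and higher were 0 of 63, against 10% of all. The 7 are the 3 ThrTGT genes named above, chr13.tRNA980-SerAGA, and the ThrAGT genes chr11.tRNA1822-ThrAGT, chr11.tRNA399-ThrAGT and chr11.tRNA395-ThrAGT, of which the last 3 were chosen after their values were seen. Of the 3 ThrTGT genes, 2 had nearly the same counts and may not be separate measurements. With only TN1 and TN2, 0 of 54 passed, against 0.134% of all, and 2 of 54 reached an unadjusted p of 0.05 or less where 3.79% of all did. The anticodon sums at an adjusted p under 0.05 were 3 of 18 with the first pair (background 21.6%) and 0 of 17 with the second (background 0.112%), and the amino acid sums were 1 of 10 (background 21.6%) and 0 of 9 (background 0.112%). Both comparisons share the 4 WD mice. Of the anticodon sums, 12 of 18 had a value below 0 against M1N and M2N, and 1 of 17 against TN1 and TN2. M1N and M2N were both above TN1 and TN2 in 22 of the 53 genes tested, against 28% of all small RNAs tested, and in 9 of 19 anticodon sums, against 12 of the 29 anticodon sums of other nuclear tRNAs. All 9 cysteine genes tested were among the 22. Of these 9, 5 had a copy with nearly the same counts, so the 22 may not be separate measurements. No test compared the pairs with each other.

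miRNAs that mark other cell types also differed between mice. The summed level of white blood cell miRNAs (4 of 4 listed, miR-223-3p the most abundant, none at 0) was 507.9 CPM in M1N, 401.8 CPM in M2N, 240.4 CPM in TN1 and 220.9 CPM in TN2. It was 225.5 CPM in M1W, 442.9 CPM in M2W, 268.6 CPM in M3W and 202.5 CPM in M5W. M1N, M2N and M2W were the highest. The vessel and smooth muscle miRNAs (3 of 3, led by miR-145-5p, none at 0) had 5649, 5858, 4518 and 4047 CPM in the SD mice and 4176, 7710, 5497 and 4230 CPM in the WD mice, in the same order. M1N, M2N and M2W were again the highest. The red blood cell miRNAs (2 of 3, led by miR-451, none at 0) had 66.5, 38.3, 148.4 and 114.4 CPM in the SD mice and 74.6, 132.0, 110.1 and 74.7 CPM in the WD mice. They were lowest in M2N and M1N. Gonad somatic miRNAs (2 of 2, led by miR-202-5p, none at 0) had 3609, 4081, 4193 and 4034 CPM in the SD mice and 4187, 7021, 4331 and 4487 CPM in the WD mice, with M2W high. The germ cell miRNAs (3 of 3, led by miR-34c-5p, none at 0) had 14223 ± 1693 CPM in SD and 13930 ± 2106 CPM in WD mice (SD, n = 4 each), and piRNAs, which germ cells make, held 87.4% ± 0.996 (SD, n = 4) and 87.0% ± 1.77 (SD, n = 4) of the counts. The part of any of these cells in the tRNA values was not tested.

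Counts of different copies of an anticodon were often nearly the same. Copies were called near-equal when their counts differed in each of the 8 mice by at most 2 counts or 10%, whichever was larger. Of the 50 genes with a mean count of 10 or more, 24 had a near-equal copy of the same anticodon, in 31 of 109 pairs, and 24 of these pairs were on different chromosomes. No near-equal pair joined different anticodons. chr11.tRNA206-ThrTGT and chr14.tRNA704-ThrTGT differed by at most 5 counts in any mouse, although they had 755 and 750 counts in M2N. Among GlnCTG genes, 15 of 36 pairs were near-equal, and among CysGCA genes 9 of 36. No tRNA sequences were compared, and whether near-equal genes share reads was not tested. The value of such a gene is uncertain, and near-equal genes may not be separate measurements. Whether a read that matches several copies was counted at each is not given in the sources used here. If it was, a sum over copies counts that read more than once. With near-equal copies counted once, an alternative chosen after seeing the data, 3 of 18 anticodon sums had an unadjusted p of 0.05 or less (background 14.8%) and 0 an adjusted p under 0.05.

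Other tRNAs and RNA polymerase III products give the setting. Of the other nuclear tRNA genes, 174 of 227 were tested, and 0 passed at an adjusted p under 0.05 (edgeR). By unadjusted p of 0.05 or less, 15 of the 174 were lower, near the 7.83% of all small RNAs, and 0 higher (background 6.76%) in WD mice, with a median log2 fold change of -0.19. By family, 10 of 76 were lower for alanine, valine, leucine, isoleucine and methionine (median -0.35), 3 of 36 for glutamic and aspartic acid (median -0.13), 2 of 34 for lysine, arginine and histidine (median -0.20) and 0 of 28 for glycine (median 0.23). Among 97 listed transcripts of the Y RNA, vault RNA, 5S rRNA and U6 families, 46 were tested, with a median of 0.10. Of these, 0 had an unadjusted p of 0.05 or less in either direction (background 14.6%). Of the 46, 40 were 5S rRNA (median 0.12), and the medians of the others were below 0, at -0.21 for 3 Y RNAs, -0.19 for 1 vault RNA and -0.77 for 2 U6 RNAs. No RNase P, RNase MRP, 7SK or 7SL RNA was matched by name. All 10 mitochondrial tRNAs for the same amino acids, which are made in the organelle by another polymerase, were tested, and 0 passed at an adjusted p under 0.05, with 3 of 10 lower (background 7.83%) and 2 of 10 higher (background 6.76%) in WD mice by unadjusted p of 0.05 or less. The diets did not overlap for mt-Tf and mt-Tw, both lower in WD mice, and for mt-Ty, which was higher (background 5.69%). The mitochondrial tRNA for tryptophan, mt-Tw, had 22.4 CPM in SD mice and 11.0 CPM in WD mice on average, a log2 fold change of -1.02 (adjusted p = 0.318), beside -0.92 for the nuclear sum. For threonine the values were -1.23 for mt-Tt (adjusted p = 0.318) and -0.54 for the nuclear sum. The signs differed for the other 3 at that limit, with -0.80 for mt-Tf (adjusted p = 0.318) and 0.21 for nuclear phenylalanine, 0.84 for mt-Ty (adjusted p = 0.318) and -0.11 for nuclear tyrosine, and 0.79 for mt-Tn (adjusted p = 0.326) and -0.15 for nuclear asparagine. Of the 5 not at that limit, mt-Tq (0.39) and mt-Tp (0.10) had the sign of nuclear glutamine and proline, while mt-Tc (0.087), mt-Ts1 (0.42) and mt-Ts2 (0.098) were above 0 where nuclear cysteine and serine were below 0 (adjusted p between 0.528 and 0.909).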

How the data were processed

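Small RNA of testis was sequenced by the authors on a SOLiD instrument, trimmed at the adaptor and aligned to mm9 with Bowtie, with mismatches allowed. The deposited values are whole-number read counts per listed small RNA. How reads with several matches were counted is not given in the sources used here. Groups were taken from the sample titles, with 4 mice a diet. The counts were tested with edgeR 4.0.16 in R 4.3.3 (quasi-likelihood test, TMM factors from all listed RNAs, filterByExpr with a minimum count of 10 and a minimum total of 15), and Benjamini-Hochberg adjustment ran over the whole table. For anticodon and amino acid sums, the copies of each nuclear tRNA were added and the sums replaced the single genes in the table. Single sums were also tested by exact permutation over the 70 ways to assign mice to diets, two-sided. DESeq2 1.42.0 and limma-voom (limma 3.58.1), other scalings, other filters, each pair of SD mice, each mouse left out and other ways to sum the copies were alternatives. Steps were tested on simulated data, and the outcome of those tests is not given here. Mitochondrial and RNA polymerase III transcripts were named with GENCODE M1. Over all small RNAs, every pair of libraries differed by more than counting noise (chi-square per degree of freedom of at least 2.42 over 28 pairs). Named are each amino acid and anticodon sum, both chromosome 1 proline genes, the highest gene of each amino acid, the 10 highest genes, any gene with an adjusted p under 0.05, and up to 6 genes with an unadjusted p of 0.05 or less whose diets do not overlap (there were none). Genes outside this rule are said to be chosen after their values were seen. The members and lists were chosen with earlier results of these data known.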

Additional observations from a re-analysis of the deposited data

Results flagged for a closer look

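In groups of 4 mice, the gap between the outermost mouse and its nearest neighbour was set against the range of the group. Of 116 groups 7 passed Dixon's 95% limit, and chance alone passes about 5%. Asparagine tRNA (also its single anticodon) had 44.6 CPM in M1N, against 28.7 to 30.0 CPM in the other SD mice. Glutamine tRNA had 337.6 CPM in M1W, against 190.8 to 198.5 CPM in the other WD mice, and GlnCTG alone had 231.4 CPM, against 120.6 to 135.5 CPM. The gene chr13.tRNA106-TyrGTA had 13.4 CPM in M1N, against 7.33 to 8.34 CPM in the other SD mice. Gonad somatic miRNAs had 7021 CPM in M2W, against 4187 to 4487 CPM in the other WD mice. The total count was 2064562 in TN2, against 3101032 to 3253798 in the other SD mice.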

How the results depend on the processing

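At an adjusted p under 0.05 the counts stayed at 0 for genes, anticodon sums and amino acid sums in every alternative run other than the comparison with M1N and M2N and the replicate block. Against M1N and M2N only, 7 of 63 genes (20.8% of all small RNAs), 3 of 18 anticodon sums and 1 of 10 amino acid sums (21.6% of all in either) passed. An unadjusted p of 0.05 or less was reached by 19 of 63 genes (35.5% of all) and 7 of 18 anticodon sums (35.9% of all), and 16 of 63 genes did not overlap (42% of all). In the replicate block of M1 and M2 mice, whose numbers name different animals, these were 1 of 60 genes at the adjusted limit (6.9% of all), chr14.tRNA190-ThrTGT with a log2 fold change of -1.05 (adjusted p = 0.0202, edgeR, where its other alternatives gave an adjusted p from 0.00314 to 1.00), 10 of 60 genes (22.6% of all) and 5 of 18 anticodon sums (23% of all) at the unadjusted limit, and 26 of 60 genes without overlap (55.7% of all). Without overlap there was 1 gene of 53 with column totals (5.29% of all), 1 of 53 with upper-quartile factors (5.55%), 1 of 43 with 10 counts in every mouse (5.72%), 3 of 135 with no filter (5.28%) and 2 of 54 against TN1 and TN2 (12.3%). At the unadjusted limit there were 6 of 135 genes with no filter (13.3% of all), and 1 anticodon sum of 18 with DESeq2 (13.1%), of 17 with 10 counts in every mouse (15.3%) and of 14 from the type tRNA alone (14.8%). With each mouse left out, these counts ran from 0 to 7 genes at the unadjusted limit, 0 to 6 without overlap and 0 to 5 anticodon sums. Of these, 0 of 57 genes (7.95% of all) and 0 of 18 anticodon sums (8.05%) were at the unadjusted limit without M2N, and 7 of 59 genes (22.8%) and 5 of 18 anticodon sums (23%) without TN2. Without M2W 6 of 57 genes did not overlap (12.7% of all). The WD minus SD share of the members was -0.0110 percentage points of all counts. With piRNA counts out of the denominator it was -0.105 percentage points. As piRNAs held 87.4% of the counts in SD and 87.0% in WD mice, that base is far smaller and the sizes of these gaps cannot be compared.

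Signs turned most often against TN1 and TN2. Among genes the log2 fold change was then 0.35 for chr11.tRNA1444-CysGCA, 0.59 for chr6.tRNA157-CysGCA, 0.56 for chr11.tRNA1432-CysGCA, 0.70 for chr11.tRNA791-CysGCA, 0.77 for chr9.tRNA593-CysGCA, 0.71 for chr17.tRNA458-CysGCA, 0.19 for chr11.tRNA206-ThrTGT, 0.20 for chr14.tRNA704-ThrTGT, 0.079 for chr13.tRNA980-SerAGA, 0.13 for chr2.tRNA1947-AsnGTT and 0.071 for chr1.tRNA1022-ProCGG. Among sums it was 0.49 for CysGCA, 0.011 for ThrAGT, 0.086 for ThrTGT, 0.073 for all threonine, 0.026 for SerAGA, 0.11 for SerGCT, 0.15 for SerTGA, 0.10 for all serine, 0.033 for AsnGTT and 0.015 for TyrGTA. Against M1N and M2N it was -0.051 for chr11.tRNA396-ProCGG, -0.043 for ProCGG and -0.049 for PheGAA.

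The near-zero chr1.tRNA1022-ProCGG was 0.063 with column totals, 0.016 with upper-quartile factors, 0.032 with limma-voom, 0.0061 with no filter, 0.0096 with 10 counts in every mouse and 0.12 in the replicate block. With column totals chr11.tRNA1444-CysGCA was 0.0077. SerGCT was 0.0038 in the replicate block. From the type tRNA alone the sums were -0.0026 for ProCGG, 0.083 for SerGCT, 0.26 for TyrGTA and 0.0019 for all serine. Scaled to nuclear tRNA alone they were 0.046 for AsnGTT, 0.049 for SerGCT and 0.086 for TyrGTA.

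With each mouse left out, the log2 fold change ran from -0.45 to 0.24 for CysGCA, -0.22 to 0.022 for AsnGTT, -0.41 to 0.069 for SerGCT, -0.24 to 0.13 for TyrGTA, -0.091 to 0.26 for ProCGG and -0.022 to 0.40 for PheGAA. Among genes it ran from -0.19 to 0.25 for chr11.tRNA1444-CysGCA, -0.87 to 0.21 for chr6.tRNA157-CysGCA, -0.89 to 0.20 for chr11.tRNA1432-CysGCA, -1.01 to 0.23 for chr11.tRNA791-CysGCA, -0.99 to 0.26 for chr9.tRNA593-CysGCA, -1.02 to 0.23 for chr17.tRNA458-CysGCA, -0.39 to 0.064 for chr2.tRNA1947-AsnGTT, -0.084 to 0.26 for chr11.tRNA396-ProCGG and -0.15 to 0.22 for chr1.tRNA1022-ProCGG. Without a turn of sign it ran from -0.73 to -0.13 for ThrTGT, -0.72 to -0.17 for all threonine, -0.77 to -0.28 for ThrCGT, -0.72 to -0.34 for SerAGA, -0.37 to -0.069 for SerTGA, -0.37 to -0.078 for all serine, 0.045 to 0.21 for SerCGA, 0.13 to 0.46 for all glutamine, 0.073 to 0.28 for ProAGG, 0.019 to 0.21 for ProTGG and 0.0049 to 0.25 for all proline. In each alternative that gave a value, the sums of GlnCTG, GlnTTG, all glutamine, SeCTCA, SerCGA, ProAGG, ProTGG and all proline were above 0, and those of TrpCCA and ThrCGT below 0. TrpCCA gave none with 10 counts in every mouse, against TN1 and TN2, without its highest gene or from either type alone. The cause of these shifts was not tested. At this depth 82 of the 135 genes did not pass the filter on low counts with all 8 mice.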
